A study of Xenopus laevis with 12 samples.

Results

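Hox cluster genes were followed in Xenopus laevis, the African clawed frog, in whole late-gastrula embryos (stage 11.5). Members were the probe sets whose annotated gene symbol began with hoxa, hoxb, hoxc or hoxd and a number, which gave 29 of 15491 tested probe sets. They stand for 21 of 7531 named genes and cover paralog groups 2 to 13. The control group held 6 embryos given GFP mRNA, the jellyfish fluorescent protein, and the other group held 6 embryos given Nkx2-5 mRNA together with GFP mRNA. Both groups were injected at the 8-cell stage, and each embryo was hybridised on its own 1-colour Affymetrix array after 2 cycles of labelling from 100 ng of total RNA. Nkx2-5 belongs to the homeodomain proteins and is best known as a regulator of the forming heart. The labels give neither the dose nor the cell injected, and whether the embryos shared parents is not stated, so the p-values speak only of variation among these 12 embryos.

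Hox genes encode homeodomain transcription factors and lie in clusters named A to D. Genes of one paralog group hold like positions in their clusters, and low-numbered groups are switched on earlier and further toward the head than high-numbered ones, an order called colinearity. In vertebrate gastrulae, retinoic acid, FGF and Wnt signals and the caudal-type Cdx factors help to set where Hox genes begin to be transcribed, while TALE homeodomain proteins (Meis, Pbx and Pknox) bind DNA together with Hox proteins. Xenopus laevis carries copies called L and S of many genes, and an L and an S copy count here as separate genes. The study's title speaks of putative Nkx2-5 targets, and the comparison shows how early Nkx2-5 mRNA goes with Hox transcript levels.

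Of the 29 Hox probe sets, 1 changed by limma's adjusted p, or 3.45% called higher beside 3.12% of all probe sets. hoxc6.S rose from a mean signal of 77.6 ± 29.4 in GFP embryos to 187 ± 59.9 in Nkx2-5+GFP embryos (SD, n = 6 each), a log2 difference of 1.13. In whole embryos, more cells of a type and more RNA per cell cannot be told apart. The differences of hoxa7.L (1.27) and hoxc8.S (1.25), both trunk-level Hox genes, did not pass. Their SEs were 0.45 and 0.42, where the hoxc6.S probe set that rose had 0.26. These differences exceeded that of the risen hoxc6.S probe set at the pseudocount of 16. They did not at 64, where the values were 0.69, 0.70 and 0.82. Probe sets of paralog groups 9 to 13, a band chosen after values were seen, had a median difference of -0.09. No Hox probe set fell by limma's adjusted p (0 at an adjusted p under 0.05, and 1 at an unadjusted p under 0.05).

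Signals are the authors' MAS5 intensities on a linear scale. Differences are Nkx2-5+GFP minus GFP on the log2(signal + 16) scale, where changes of dim probe sets come out too small, and a call means a limma adjusted p under 0.05 over all probe sets tested. Of the 29 members, 1 was called higher, or 3.45%, and of all probe sets 3.12% were called higher and 6.38% in either direction, so the members' share lay near the background. Calls in the lower direction covered 0 members and 3.26% of all probe sets. An unadjusted p under 0.05 was reached by 6 members, or 20.7%, of which 5 were higher, or 17.2%, against 24.3% of all probe sets in either direction and 10.9% higher. The groups did not overlap in 1 member, while 2.99% of all probe sets had groups that did not overlap, 1.57% with Nkx2-5+GFP higher. The median difference over the members was 0.18, with 19 of 29 above 0, and over all probe sets it was -0.02, with 47.7% above 0. The members' median was 0.0804 without GFP embryo 5 and 0.0892, with 17 above 0, without Nkx2-5+GFP embryo 6. Among the 7745 probe sets below the median level, 2.31% were called higher, and the median difference was -0.0028, with 49.6% above 0.

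All 29 members lay below the median level of the array, which was 8.41 on the log2(signal + 16) scale. Their mean signals over the 12 embryos ran from 6.13 to 132, with a median of 39.4. The 17 control probe sets for artificial tag sequences, taken here to have no target in the frog, had mean signals from 3.445 to 140.4. The median of these tag controls was 21.6 and their second highest mean was 73.2. Of the members, 23 lay above the tag median, 8 above the second highest tag control and 0 above the highest. The median SD within a group was 0.51 for the members among GFP embryos and 0.56 among Nkx2-5+GFP embryos, while it was 0.56 for the tag controls, and 0.255 and 0.275 in the groups over all probe sets. Over probe sets below the median level it was 0.369 among GFP embryos and 0.396 among Nkx2-5+GFP embryos. Between embryos the Hox probe sets were thus about as variable as the tag controls. The largest absolute difference between groups among the 17 tag controls was 0.76, and 4 members exceeded it, namely hoxa7.L, hoxc8.S, the hoxc6.S probe set that rose and 1 hoxa11.S probe set. Probes differ in how well they bind, so levels are not compared between genes.

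Median signals of the arrays lay between 304.9 and 349.7. Nkx2-5+GFP embryo 6 stood apart in the hybridisation controls. Its mean signal was 809 over the bioB control probe sets, against 472 to 548 on the other arrays. Among dim probe sets it stood apart too, with a 10th percentile signal of 24.87 against 17.52 to 20.05 on the other arrays. Epidermal marker genes summed to between 11360 and 15730 in GFP embryos and between 16860 and 27970 in Nkx2-5+GFP embryos, and 8 of 12 measured genes of that list rose. Endoderm markers summed to 15790 to 20330 in GFP embryos and 12460 to 15670 in Nkx2-5+GFP embryos, with 3 of 12 lower. Mesoderm markers had 4 of 8 higher, neural plate markers had 1 of 14 higher and 1 lower, and maternal and germ plasm transcripts had 3 of 10 lower, where 3.11% of all genes were called higher and 3.86% lower with 1 probe set a gene. The mesoderm count was 1 when Nkx2-5+GFP embryo 1 or 4 was left out and when GFP embryo 3 or 6 was, 2 without embryo 2 of either group, GFP embryo 4 or Nkx2-5+GFP embryo 6, and 6 without GFP embryo 5. The maternal count was 0 without Nkx2-5+GFP embryo 1, GFP embryo 3 or GFP embryo 6, and 1 without embryo 2 or 4 of either group. Both neural plate counts lay between 0 and 1 with 1 embryo left out. Of the nkx2-5.S probe sets, which need not detect the injected mRNA, the one that was called had signals from 57.4 to 138 in GFP embryos and from 122 to 233 in Nkx2-5+GFP embryos, and the other ran from 64.1 to 125 and from 115 to 187.

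**Figure D1:**
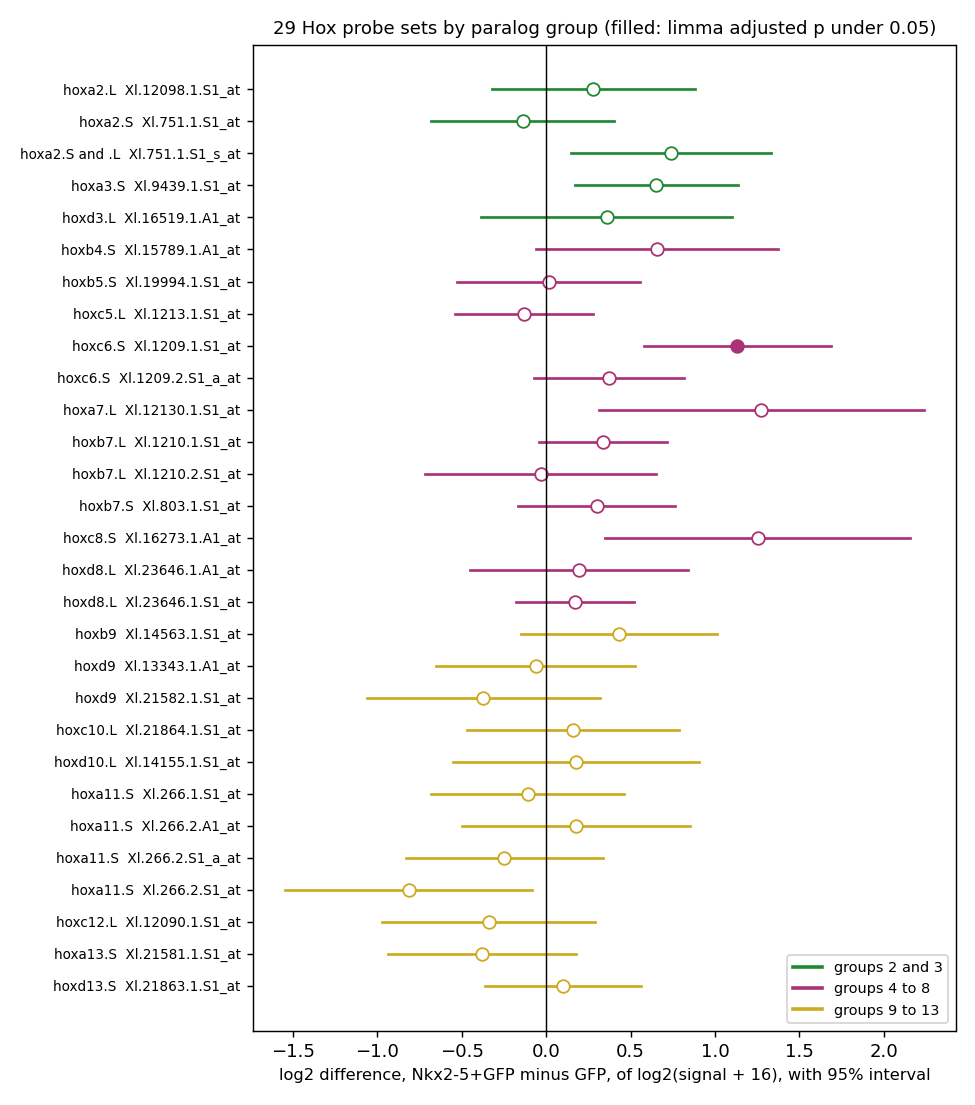
Log2 difference (Nkx2-5+GFP minus GFP, log2(signal + 16) scale, x axis) of each of the 29 Hox probe sets (y axis, from paralog group 2 at the top to 13 at the bottom), with limma's 95% interval. The filled point is hoxc6.S at 1.13, the only member called, open points did not pass, and colours mark groups 2 and 3, 4 to 8 and 9 to 13.

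Of paralog groups 2 and 3, 5 probe sets were measured and 0 passed, beside 6.38% of all probe sets called in either direction. Their median difference was 0.36. hoxa2, which in the mouse sets the identity of the second pharyngeal arch, was measured by 3 probe sets. The probe set annotated to both hoxa2.L and hoxa2.S had a lowest, median and highest signal of 25.3, 73.8 and 158 in GFP embryos. In Nkx2-5+GFP embryos it had 101, 137 and 165, with all 6 above the GFP median. The difference was 0.74 (SE 0.28, limma adjusted p = 0.118, exact permutation p = 0.0368), and the GFP embryos were spread over a far wider range than the Nkx2-5+GFP embryos. Of 21 alternatives, the difference passed only without GFP embryo 5, where it was 0.93 (limma adjusted p = 0.033). With the ratio of 3' to 5' beta-actin signal as a covariate it was 0.42 (limma adjusted p = 0.396). The probe sets of the single copies were dim in all embryos, and hoxa2.L differed by 0.28 and hoxa2.S by -0.14, neither of which passed (limma adjusted p = 0.598 and 0.796).

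hoxa3.S, whose mouse counterpart is needed for organs of the third pharyngeal arch such as the thymus, had signals of 8.23, 14.3 and 31.4 (lowest, median and highest) in GFP embryos. Its signals in Nkx2-5+GFP embryos were 20.4, 35.1 and 54.2, and 3 of these embryos lay above every GFP embryo. With an SE of 0.23 the difference was 0.65, which did not pass over all probe sets (limma adjusted p = 0.0927, exact permutation p = 0.0152). hoxd3.L, known from the mouse for its part in the first neck vertebrae, ran from 4.81 to 54.9 in GFP embryos and from 5.00 to 51.1 in Nkx2-5+GFP embryos. These ranges were nearly the same, and the difference of 0.36 (SE 0.35) did not pass (limma adjusted p = 0.579), nor did the 0.56 without Nkx2-5+GFP embryo 6 (limma adjusted p = 0.333).

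**Figure D2:**
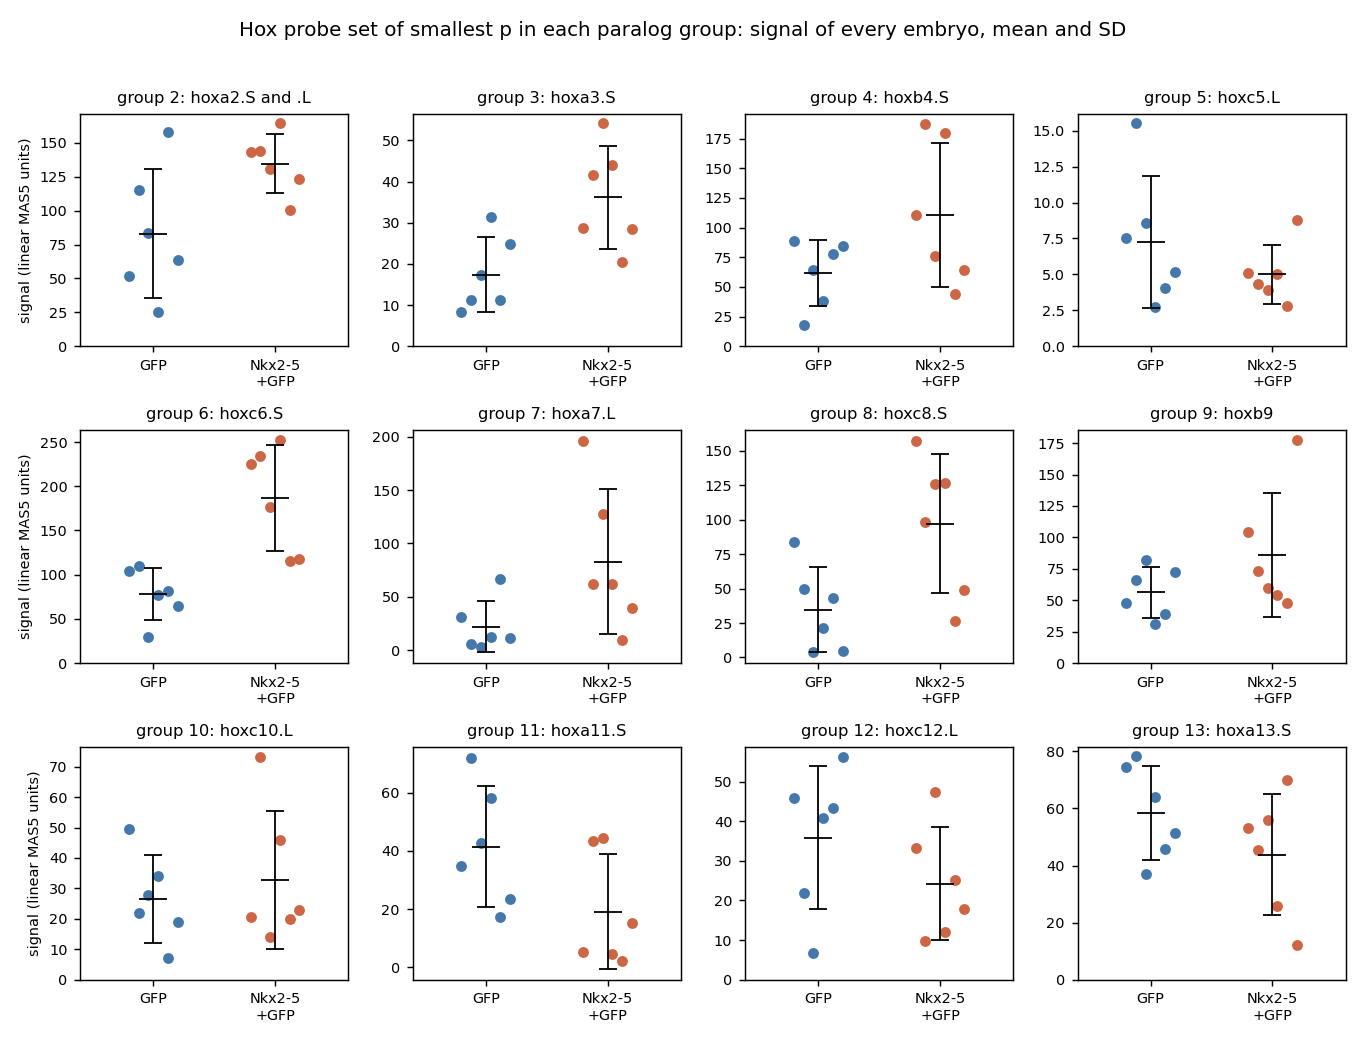
Signal in linear MAS5 units (y axis) of every GFP and Nkx2-5+GFP embryo (points, x axis) for the Hox probe set of smallest p in each of paralog groups 2 to 13, with the mean and SD of the 6 embryos (bar). In the hoxc6.S panel all Nkx2-5+GFP embryos, at 115 and above, lie over all GFP embryos, at 110.2 and below, and in the other panels the groups overlap.

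Paralog groups 4 to 8, which pattern the level of the hindbrain's end, the neck and the trunk, held 12 probe sets of 9 genes. Their median difference was 0.32, and 10 of 12 were above 0. The bands of paralog groups were chosen after values were seen, so the contrast between bands tests nothing. Group 5, inside this band, had a median difference of -0.06, and group 10, outside it, had 0.17. hoxb4.S, a gene of the posterior hindbrain, had signals of 18.1, 71.2 and 88.4 (lowest, median and highest) in GFP embryos and 43.8, 93.5 and 188 in Nkx2-5+GFP embryos. Nkx2-5+GFP embryos 1, 2 and 4 lay above all GFP embryos and the others lay within their range. The difference, 0.66 with an SE of 0.34, did not pass (limma adjusted p = 0.2495, exact permutation p = 0.128).

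The paralog group 5 genes were dim and differed little on the log2(signal + 16) scale. Their mean signals in both groups lay below the tag control median of 21.6, where this scale shrinks differences. The small differences thus do not show that the transcripts were unchanged. hoxc5.L ran from 2.75 to 15.5 in GFP embryos, with a median of 6.35, and from 2.81 to 8.80 in Nkx2-5+GFP embryos, with a median of 4.71. Its difference was -0.13 (95% interval -0.54 to 0.28, limma adjusted p = 0.736). hoxb5.S, the neighbour of hoxb4.S in the RefSeq gene table, differed by 0.02 (95% interval -0.53 to 0.56). Adding 1 before the log gave -0.35 for hoxc5.L and 0.01 for hoxb5.S, and neither passed.

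hoxc6.S is a trunk-level gene known in the mouse from the thoracic region. Signals of its changed probe set were 104, 110.2, 28.9, 76.5, 81.6 and 64.4 in GFP embryos 1 to 6. The same probe set gave 225, 234, 176, 252, 115 and 118 in Nkx2-5+GFP embryos 1 to 6. All 6 Nkx2-5+GFP embryos were above all 6 GFP embryos, but embryos 5 and 6 only narrowly, and GFP embryo 3 was far below its group. The log2 difference was 1.13, or 2.19-fold (SE 0.26, 95% interval 0.58 to 1.69, limma adjusted p = 0.0234), and the exact permutation p = 0.00216 is the smallest that 6 embryos against 6 allow. The call was lost when GFP embryo 6 (limma adjusted p = 0.0513), Nkx2-5+GFP embryo 1 (0.0609) or Nkx2-5+GFP embryo 2 (0.0506) was left out, and with the ratio of 3' to 5' beta-actin signal as a covariate (0.0783), where the difference was 1.12. Without Nkx2-5+GFP embryo 6, the array with brighter hybridisation controls, the difference was 1.24 (limma adjusted p = 0.0259).

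The other hoxc6.S probe set, whose suffix marks probes shared by transcript forms of one gene, showed a smaller difference. Its signals were 45.9, 64.3 and 103 (lowest, median and highest) in GFP embryos and 67.4, 85.5 and 141 in Nkx2-5+GFP embryos. All 6 Nkx2-5+GFP embryos lay above the GFP median, and the groups overlapped. The difference was 0.37 (95% interval -0.07 to 0.82, limma adjusted p = 0.297, exact permutation p = 0.104). This interval overlaps that of the first probe set, and the difference between the probe sets was not tested. The beta-actin 3' to 5' difference in log2 signal is a sign of RNA and labelling quality. It lay between 1.45 and 2.02 in GFP embryos and between 1.39 and 1.70 in Nkx2-5+GFP embryos. For the gapdh control probe sets it was larger, between 4.38 and 5.30 in GFP embryos and between 4.105 and 4.92 in Nkx2-5+GFP embryos.

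hoxa7.L, which belongs to the genes of the trunk, had the largest difference of all members at the pseudocount of 16. Its signals were 3.49, 12.2 and 66.8 (lowest, median and highest) in GFP embryos and 9.82, 62.1 and 196 in Nkx2-5+GFP embryos. Nkx2-5+GFP embryos 1 and 3 lay above all GFP embryos, while Nkx2-5+GFP embryo 5 lay below the GFP median. At 1.27 the difference did not pass (limma adjusted p = 0.1003, exact permutation p = 0.0433). It passed in 2 of 21 alternatives, without GFP embryo 5 (limma adjusted p = 0.0392) or without Nkx2-5+GFP embryo 5 (0.0251). In the others it did not pass, with limma adjusted p up to 0.267. The size depends on the pseudocount at these signals: adding 1 before the log gave 1.97 and adding 64 gave 0.69, below the 0.82 of the called hoxc6.S probe set at 64.

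The hoxb7 genes, also of the trunk, had 3 probe sets. The hoxb7.L probe set of smaller p ran from 37.97 through a median of 42.5 to 56.7 in GFP embryos and from 39.96 through 63.98 to 78.2 in Nkx2-5+GFP embryos. GFP embryos lay close together here, and 4 Nkx2-5+GFP embryos lay above all of them, embryo 5 by very little. The difference was 0.34 (limma adjusted p = 0.265, exact permutation p = 0.039). A further hoxb7.L probe set differed by -0.03 (95% interval -0.71 to 0.65) and the hoxb7.S probe set by 0.30 (95% interval -0.17 to 0.77), so that neither copy passed.

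hoxc8.S, which in the mouse patterns thoracic vertebrae and motor neurons of the forelimb level, is the next gene after hoxc6.S in the RefSeq gene table. Signals were 4.08, 32.4 and 84.1 (lowest, median and highest) in GFP embryos and 26.1, 112 and 157 in Nkx2-5+GFP embryos. Nkx2-5+GFP embryos 1 to 4 lay above all GFP embryos, and GFP embryos 3 and 6 were nearly without signal. The difference was 1.25 (SE 0.42, limma adjusted p = 0.0865, exact permutation p = 0.0325). It passed in 2 of 21 alternatives, without GFP embryo 1 (limma adjusted p = 0.0491) or Nkx2-5+GFP embryo 5 (0.0325). In the others it did not pass, with limma adjusted p up to 0.196. Its size was 1.92 when 1 was added before the log and 0.70 when 64 was.

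A probe set annotated with the symbol xhoxc8 fell outside the rule for members. In the RefSeq gene table this gene follows hoxc6.L, as hoxc8.S follows hoxc6.S. Its signals were 38.4, 72.9 and 142 (lowest, median and highest) in GFP embryos and 38.2, 179 and 189 in Nkx2-5+GFP embryos. Nkx2-5+GFP embryos 1, 3, 4 and 6 were above all GFP embryos, and embryo 5 was level with the lowest of them. It differed by 0.73 (SE 0.33, limma adjusted p = 0.186), with the same sign as hoxc8.S. hoxd8.L, of the same paralog group, differed by 0.20 and 0.17 in its probe sets (95% intervals -0.45 to 0.84 and -0.18 to 0.52), and neither passed.

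Paralog groups 9 to 13 held 12 probe sets of 8 genes, and 0 passed, beside 6.38% of all probe sets called in either direction. Among so few probe sets a count of 0 is near that share. Of the 12, 5 differences were above 0 and 7 below. These groups pattern the trunk's end, the tail and the limbs, and are switched on last of the Hox genes. hoxb9, a common marker of the spinal cord in Xenopus, had signals of 30.8, 56.9 and 81.7 (lowest, median and highest) in GFP embryos and 48.1, 66.3 and 178 in Nkx2-5+GFP embryos. Nkx2-5+GFP embryos 1 and 6 lay above all GFP embryos and the others among them, and the log2 difference was 0.43 (SE 0.27, limma adjusted p = 0.361, exact permutation p = 0.188). Without Nkx2-5+GFP embryo 6 the difference of hoxb9 was 0.22. Neither hoxd9 probe set passed, at -0.06 and -0.37.

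hoxc10.L, known in the mouse from motor neurons of the hindlimb level, had signals of 7.12, 24.8 and 49.6 (lowest, median and highest) in GFP embryos and 14.0, 21.8 and 73.1 in Nkx2-5+GFP embryos. The medians were nearly equal and the difference was 0.16 (SE 0.30, limma adjusted p = 0.80). hoxd10.L, the other gene of the group, ran from 22.0 to 149 in GFP embryos and from 29.8 to 113 in Nkx2-5+GFP embryos, with a difference of 0.18.

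hoxa11.S, known in the mouse from the forearm and the uterus, was measured by 4 probe sets, with 3 differences below 0 and 1 above. The one of smallest p had signals of 17.2, 38.7 and 72.1 (lowest, median and highest) in GFP embryos and 2.03, 10.1 and 44.4 in Nkx2-5+GFP embryos. Nkx2-5+GFP embryos 2 and 3 stayed at the GFP level, and the other 4 lay below all GFP embryos. The difference was -0.81 (SE 0.34, limma adjusted p = 0.16, exact permutation p = 0.0628), and the other hoxa11.S probe sets differed by -0.25, -0.11 and 0.18. No hoxa11.S probe set passed in any of the 21 alternatives that tested Hox probe sets.

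The genes of groups 12 and 13 act last, in the tail, the hindgut and the digits. hoxc12.L had signals of 6.78, 42.1 and 56.2 (lowest, median and highest) in GFP embryos and 9.81, 21.5 and 47.4 in Nkx2-5+GFP embryos. Its difference was -0.34 (SE 0.30, limma adjusted p = 0.53), and the groups overlapped. hoxa13.S, needed in the mouse for hand, foot and hindgut, had signals of 37.2, 57.6 and 78.2 in GFP embryos and 12.3, 49.3 and 70.1 in Nkx2-5+GFP embryos. Its difference was -0.38 (SE 0.26, limma adjusted p = 0.409, exact permutation p = 0.212), and only 1 Nkx2-5+GFP embryo lay above the GFP median. It was -0.18 without Nkx2-5+GFP embryo 6. hoxd13.S, a gene of the digits, differed by 0.10 (95% interval -0.36 to 0.56).

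By cluster, the median difference was 0.03 for the 10 probe sets of cluster A, 0.32 for the 6 of cluster B, 0.27 for the 6 of cluster C and 0.17 for the 7 of cluster D. Of cluster A, 5 differences were above 0 and 5 below, and these 5 were 3 of the 4 hoxa11.S probe sets, hoxa13.S and hoxa2.S. L copies, with 11 probe sets, had a median difference of 0.18 and S copies, with 14, one of 0.14. Copies were counted by the letter of the symbol alone. hoxa11.S, with 4 of these S probe sets, is followed in the RefSeq gene table by hoxa13.L, an L copy. Medians by place in that table were not taken. The number of arrays limits the precision, and near or below a signal of 16 the log2(signal + 16) scale shrinks differences and their intervals alike.

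**Figure D3:**
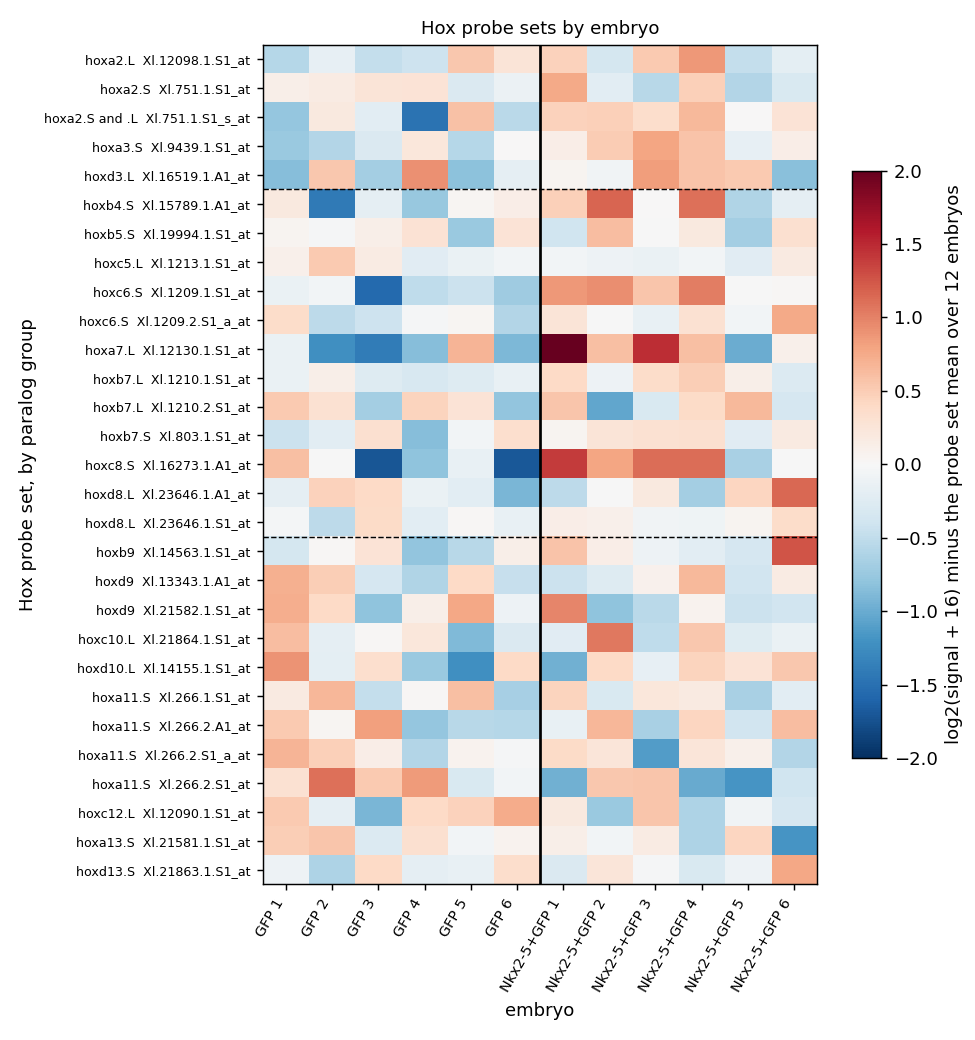
Level of each Hox probe set (rows, paralog group 2 at the top, dashed lines after groups 3 and 8) in each embryo (columns, GFP left and Nkx2-5+GFP right of the line), as log2(signal + 16) minus the probe set's mean over the 12 embryos, with colours ending at -2 and 2. Between the dashed lines, the called hoxc6.S probe set, hoxa7.L and hoxc8.S are high in Nkx2-5+GFP embryos 1 to 4 and nearer their mean or below it in embryo 5, which was the lowest of its group in 14 of 29 members.

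The embryos of a group were not alike in Hox signal. Nkx2-5+GFP embryo 5 was the lowest of its group in 14 of 29 members, and no other Nkx2-5+GFP embryo was the lowest in more than 4. The corresponding share over all probe sets was not taken, so this is not shown to be particular to Hox genes. Some of the 14 were dim in embryo 5, such as hoxa2.S (0.78), hoxc5.L (2.81) and hoxa7.L (9.82), below the tag control median of 21.6. Others were brighter, such as the called hoxc6.S probe set (115) and the shared hoxa2 probe set (101). Some genes count more than once. In GFP embryos the lowest place was spread from 3 to 8 members. The mean log2 level over the 12 probe sets of groups 4 to 8 ran from 5.54 to 6.04 in GFP embryos and from 5.79 to 6.41 in Nkx2-5+GFP embryos, where embryo 5 had 5.79 and the next lowest, embryo 6, had 6.17. Over groups 9 to 13 the corresponding means ran from 5.64 to 6.22 and from 5.53 to 5.88, and here the groups had nearly the same median, 5.75 and 5.76.

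Marker sums, in which bright genes weigh most, also differed between embryos. Nkx2-5+GFP embryo 5 also had the lowest sums in its group for epidermal markers (16860, against 21820 to 27970) and mesoderm markers (10230, against 11400 to 17760). Maternal and germ plasm transcripts, which fall as an embryo ages, summed to 23910 to 29830 in GFP embryos and 19870 to 26920 in Nkx2-5+GFP embryos, with embryos 5 and 6 highest of that group. Among GFP embryos the lowest such sum was that of embryo 5, at 23910, and the next lowest that of embryo 1, at 26420. The same embryos had the highest GFP mean levels over groups 4 to 8, 5.90 and 6.04. This did not hold over all members, where GFP embryos 1 and 2 were highest, at 5.90 and 5.79, and embryo 5 had 5.69. The maternal sum of GFP embryo 2 was 28370. Over groups 2 and 3, GFP embryo 1 had the lowest mean level, at 4.79. The part of embryo age or of the proportion of tissues in the Hox differences was not tested.

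Of 20 measured genes of posterior FGF, Wnt and T-box signalling, which act in the tissue where Hox genes start, 2 rose, 0 fell and 18 did not pass, while 3.11% of all genes were called higher with 1 probe set a gene. The median difference was 0.23 and 18 of 20 were above 0. Both genes that rose, and tbxt.S and tbx6.L, stand in the mesoderm marker list too, so the rises there are in part the same genes. Mesoderm sums ran from 8772 to 11820 in GFP embryos and from 10230 to 17760 in Nkx2-5+GFP embryos. Most of these sums was tbxt.S, which did not pass, at 7188 to 8387 in GFP embryos and 6967 to 11582 in Nkx2-5+GFP embryos. tbxt.2.S, a Brachyury-type T-box gene, had signals of 167, 252 and 394 (lowest, median and highest) in GFP embryos and 364, 434 and 659 in Nkx2-5+GFP embryos. It rose by 0.86 (SE 0.20, limma adjusted p = 0.0245), with a slight overlap of the groups, and the call was lost in 5 of 22 alternatives. msgn1.L, a gene of the presomitic mesoderm, rose by 1.05 (SE 0.29, limma adjusted p = 0.0426), a call lost in 11 of 22 alternatives. The count of genes that rose was 0 without GFP embryo 3, GFP embryo 6, Nkx2-5+GFP embryo 1 or Nkx2-5+GFP embryo 4, 0 with the beta-actin ratio as a covariate, and 1 without Nkx2-5+GFP embryo 2 or 6, without GFP embryo 2 or 4 and without the intensity trend. evx1.L, a homeobox gene of the posterior embryo, differed by 0.86 and sp5.S, a Wnt target, by 0.94, and neither passed (limma adjusted p = 0.0571 and 0.118).

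The caudal-type genes cdx1.S and cdx4.L, whose products activate trunk Hox genes in vertebrates, were the measured genes of the ParaHox list. cdx4.L had signals of 165, 254 and 446 (lowest, median and highest) in GFP embryos and 293, 406 and 621 in Nkx2-5+GFP embryos. cdx1.S had 1568, 3132 and 4033 in GFP embryos and 3393, 4087 and 5569 in Nkx2-5+GFP embryos. The groups overlapped in both genes. The differences were 0.71 for cdx4.L (SE 0.22, limma adjusted p = 0.0691) and 0.55 for cdx1.S (SE 0.19, limma adjusted p = 0.0956). Thus 0 of 2 passed, beside 3.11% of all genes called higher. Both passed without GFP embryo 5, as did cdx4.L without Nkx2-5+GFP embryo 5 or without the dimmer probe sets. In the other alternatives neither passed, with limma adjusted p up to 0.1925 for each. Their summed signal was lowest in GFP embryo 3, at 1733, the GFP embryo in which the called hoxc6.S probe set, hoxa7.L and hoxc8.S were lowest too. The other hoxc6.S probe set was lowest in GFP embryo 6. Over all 29 members GFP embryo 3 was the lowest in 6, and GFP embryo 4, with a Cdx sum of 3121, in 8. The mean level over groups 4 to 8 was lowest in GFP embryo 6, at 5.54, with GFP embryo 3 at 5.57. GFP embryo 3 also had the lowest GFP sums for retinoic acid genes (16490), anterior head genes (9991) and TALE cofactors (2469). Bright genes weigh most in such sums, and there otx1.L gave 7829 of the 9991 and pbx2.L 1773 of the 2469. GFP embryo 3 was not lowest for the posterior, hindbrain or Polycomb lists, and a link between Cdx and Hox levels was not tested.

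Genes of retinoic acid synthesis, breakdown, binding and reception numbered 18 measured, with 0 rises, 1 fall and 17 that stayed short of the threshold, while 3.86% of all genes were called lower, and the median difference was 0.17. The fall was rdh10.S, a retinol dehydrogenase gene of the first step of synthesis, from signals of 1501, 1658 and 1958 (lowest, median and highest) to 1043, 1140 and 1283. Its groups did not overlap, the difference was -0.55 (SE 0.09, limma adjusted p = 0.00506), and the call held in all 22 alternatives. The L copy had the opposite sign, with 0.32 for rdh10.L, which was not called (limma adjusted p = 0.0691). The receptor genes rara.L and rxrg.L differed by 0.68 and -0.52 without passing (limma adjusted p = 0.1065 and 0.0639). aldh1a2.L, the gene of the main embryonic retinaldehyde dehydrogenase, differed by 0.24, and cyp26a1.S and cyp26a1.L, which encode the enzyme that breaks retinoic acid down, by -0.41 and 0.11.

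Of the 7 measured hindbrain segment factors, 1 rose, 0 fell and 6 did not pass, beside 3.11% of all genes called higher, and the median difference was 0.33. It was gbx2.2.L, a homeobox gene of the anterior hindbrain and the posterior side of its border, with signals of 23.2, 188 and 441 (lowest, median and highest) in GFP embryos and 330, 566 and 841 in Nkx2-5+GFP embryos. The difference was 1.91 (SE 0.49, limma adjusted p = 0.0342), and the call was lost in 9 of 21 alternatives, among them those without Nkx2-5+GFP embryo 1, 2, 3 or 4 and those without GFP embryo 3, 4 or 6. gbx2.2.L has 2 probe sets, and these values are those of the one of higher mean log2 level. gbx2.1.S and znf703.S differed by 0.65 and 0.49 and did not pass.

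The 13 measured anterior head genes had 0 rises, 1 fall and 12 that did not pass, beside 3.86% of all genes called lower, and the median difference was 0.19. otx1.L, a homeobox gene of the forebrain and midbrain, fell by 0.27 on the log2 scale from 8464 ± 679 to 6999 ± 616 (SD, n = 6 each, limma adjusted p = 0.043), a call lost in 15 of 22 alternatives. six3.L and rax.L, of the eye field, differed by 0.63 and 0.70 and did not pass. The TALE cofactor list had 6 measured genes and the list of Polycomb and trithorax genes, whose products keep Hox genes off or on, had 15. Of either list 0 members passed, beside 3.11% of all genes called higher and 3.86% lower, so counts of 0 are near those shares. The median differences of the TALE and the Polycomb and trithorax lists were -0.0042 and -0.11. Of the 15 Polycomb and trithorax genes, 4 differences were above 0 and 11 below. Their count of genes that fell lay between 0 and 1 with 1 embryo left out. meis3.S and meis1.S differed by 0.35 and -0.29, while pcgf2.L, a Polycomb gene, differed by -0.61 (limma adjusted p = 0.121) and kdm6a.S, a histone demethylase gene, by 0.53 (limma adjusted p = 0.309).

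**Figure D4:**
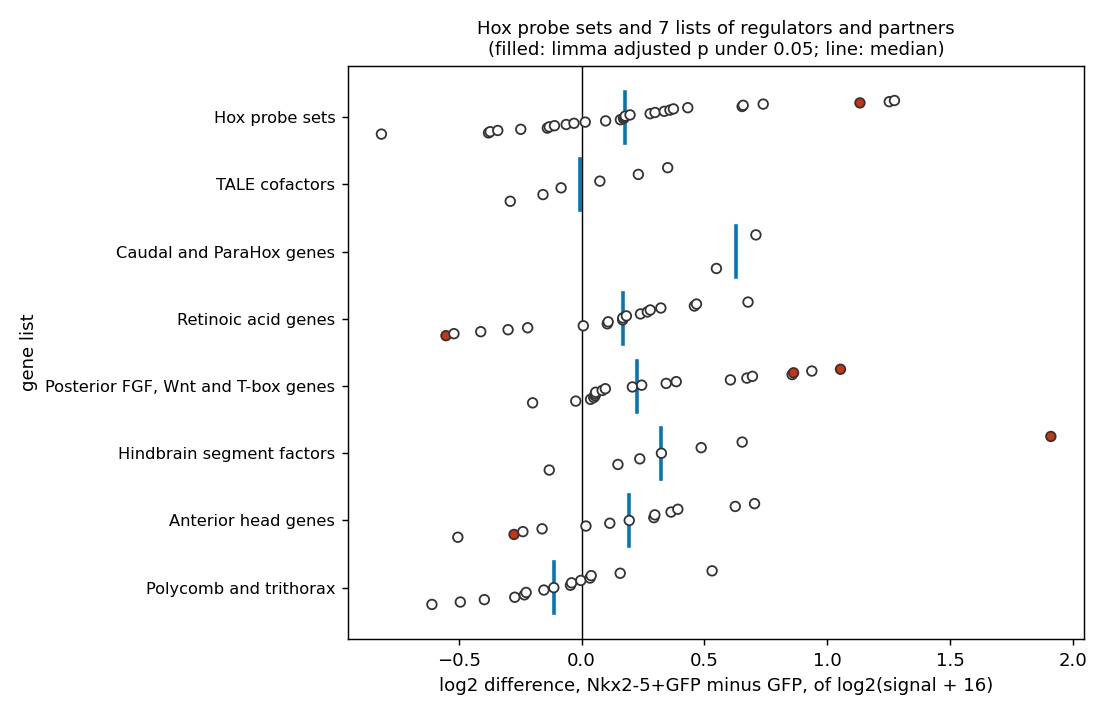
Log2 difference (Nkx2-5+GFP minus GFP, log2(signal + 16) scale, x axis) of the 29 Hox probe sets and of the measured genes of 7 lists of regulators and partners (y axis), with 1 probe set a gene in the lists. Filled points were called, blue lines are medians, and the 2 filled points of the posterior list are tbxt.2.S at 0.86 and msgn1.L at 1.05.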

How the data were processed

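Each deposited value is a MAS5 intensity of a probe set on a linear scale, made by the authors (tool per the submitters' processing notes). For MAS5's version, scaling target and detection calls, nothing is given in the sources used here. Each array's mean without its lowest and highest 2% lay between 999.52 and 999.58. Of 15611 probe sets, 120 manufacturer's controls were left out and 15491 tested. Signals were transformed as log2(signal + 16) and fitted with limma 3.58.1 in R 4.3.3 (lmFit, eBayes with an intensity trend, 2-sided, 10 residual degrees of freedom), with Benjamini-Hochberg adjustment over all 15491. The step was checked on simulated data. Exact permutation tests were 2-sided over all 924 assignments of 12 embryos.

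Names come from the array's annotation, updated by gene number with RefSeq's Xenopus_laevis_v10.1 table (9304 probe sets with 1 gene, 195 with several, 5992 unnamed). hoxb9 and hoxd9 carry no copy letter there, and 1 member is annotated to both hoxa2 copies. Hox genes without a probe set of that symbol, those of paralog group 1 among them, were not analysed here. No Hox sequence was used here.

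Members and lists were chosen with earlier results of these data known. Paralog bands, tag controls and the xhoxc8 probe set were chosen after values were seen. The text gives, per paralog group, the probe set of smallest p, all probe sets of called genes, and from each list up to 4 called genes and 2 others; marker lists are given by counts and sums, and further Hox probe sets, aldh1a2.L and cyp26a1 were added after their values were seen. Alternatives were pseudocounts of 1 and 64, leaving out dimmer probe sets, quantile and median scaling, no trend, robust estimation, array weights, the beta-actin ratio, the replicate block, leaving out each embryo, 1 probe set a gene, and leaving out probe sets shared between genes.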

Additional observations from a re-analysis of the deposited data

Results flagged for a closer look

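In hoxb5.S, GFP embryo 5 stood far below the other GFP embryos, with a signal of 3.03 against 15.4 for the nearest, a gap of 0.70 of the group's range on the log2(signal + 16) scale. It was the only such case among 58 sets of 6 embryos. Chance gives such a gap in about 1 of 20 sets, so 1 case among 58 is no more than chance gives.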

How the results depend on the processing

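The count of Hox probe sets called higher, 1 as reported, was 0 with the beta-actin ratio in the fit and between 0 and 3 when 1 embryo was left out: 0 without GFP embryo 6 or Nkx2-5+GFP embryo 1 or 2, 2 without GFP embryo 1, and 3 without GFP embryo 5 (with hoxa7.L and the shared hoxa2 probe set) or Nkx2-5+GFP embryo 5 (with hoxa7.L and hoxc8.S). Limma called 0 Hox probe sets lower in each alternative that tested them, and 1 was higher with 1 probe set a gene or without probe sets shared between genes. The hoxc6.S difference lay between 0.94 and 1.25 with 1 embryo left out and was 1.12 with the beta-actin ratio (limma adjusted p = 0.0783), with limma adjusted p from 0.0133 to 0.0783 over the 21 alternatives. The count of all changed probe sets, 988, was 203 with the beta-actin ratio, 437 without the intensity trend, and 285 to 1485 with 1 embryo left out. The higher share of these calls, 48.9%, was 58.8% with median scaling and 71.9% with the beta-actin ratio. All 29 members lie below the filter on dim probe sets, so that alternative gave no Hox value. Differences changed sign in 8 members, all of at most 0.20 in size before: hoxb5.S was -0.0384 with quantile normalization, hoxb7.L was 0.17 with the beta-actin ratio, and with 1 embryo left out the ranges were -0.13 to 0.15 for hoxb5.S, -0.19 to 0.17 for hoxb7.L, -0.013 to 0.35 for hoxd8.L, -0.20 to 0.0738 for hoxd9, -0.0378 to 0.30 for hoxc10.L, -0.0498 to 0.39 for hoxd10.L, -0.25 to 0.0113 for hoxa11.S and -0.0467 to 0.19 for hoxd13.S. The cause was not tested. Whether same-numbered embryos share more than a number is not stated. Their deviations correlated at -0.147 to 0.131. GFP embryos 1 and 2 correlated best with the Nkx2-5+GFP embryo of their own number, and the other GFP embryos did not. With the replicate block the hoxc6.S difference was 1.13 (limma adjusted p = 0.0222), 1 Hox probe set was called higher, and 779 probe sets changed. Dim signals limit what these arrays can show of Hox genes.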
